A study of Mus musculus with 6 samples.

Results

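State 14 was one of 18 numbered chromatin states in a map of the mouse genome (mm10) labelled, by its name, as wild-type hematopoietic stem cells (HSCs) and the histone variant H3.3. Its members were taken as all segments with state number 14 on chromosomes 1 to 19, which gave 28503 segments of 825324 on those chromosomes and 850831 in the whole map. The state calls chose the members, so what follows describes them and tests nothing. The series compared H3.3 in HSCs without and with the chaperone HIRA, with 2 H3.3 ChIP libraries from HIRA knockout cells, 2 from wild-type cells, 1 input from HIRA knockout cells and 1 input from wild-type cells. HSCs were sorted from bone marrow of C57BL/6 mice in which Hira was deleted conditionally in the hematopoietic system or left intact. All groups, knockout and wild type alike, had been given poly(I:C) at 20 ug, 2 doses in all, with the sort 1 week after the first. The labels give neither the Cre driver nor the ages of the mice. ChIP was done on chromatin cut with micrococcal nuclease, with a monoclonal anti-H3.3 antibody raised in rat. The map holds 1 state number per bin of 200 bp, with no counts, no replicates and no knockout column, so the depth behind it is unknown and the effect of HIRA loss was not analysed here.

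H3.3 is a form of histone H3 that is put into chromatin throughout the cell cycle, whereas the canonical forms are deposited during replication. HIRA places it at active genes and regulatory elements, and the ATRX and DAXX proteins place it at silent repeats and telomeres. A chromatin-state map cuts the genome into stretches with alike combinations of signals, and a hidden Markov model does this by weighing each bin together with its neighbours. The lengths and borders given here are therefore properties of the model as well as of the signal, and these cannot be told apart in a single map. The signals that entered the model and the emission values of its states are unknown here, so state 14 has no name beyond its number.

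Promoter sequences show only a small part of the DNA in state 14, where 0.856% of segments held an end of a protein-coding gene. RefSeq promoter windows (GRCm38.p6) run from 250 bases before to 50 bases after a transcription start, and 122 of 31365 windows on the chromosomes analysed (0.389%) lay wholly in state 14. Promoters of the clustered protocadherins were not analysed here. Windows of 4 genes are printed 5′ to 3′ on the strand of the gene, in lower case with CG dinucleotides in capitals. Gm1979 and Gm10354 are shown because they lay in the longest state 14 segments that held a protein-coding promoter of this table, apart from a near copy of Gm1979. Tcfl5 and Mest were chosen after their values were seen, because they are CG-rich promoters in segments shorter than those of the Gm promoters. At 2.2 kb each, these segments were still above the 95th percentile of state 14, 2 kb.
Gm1979: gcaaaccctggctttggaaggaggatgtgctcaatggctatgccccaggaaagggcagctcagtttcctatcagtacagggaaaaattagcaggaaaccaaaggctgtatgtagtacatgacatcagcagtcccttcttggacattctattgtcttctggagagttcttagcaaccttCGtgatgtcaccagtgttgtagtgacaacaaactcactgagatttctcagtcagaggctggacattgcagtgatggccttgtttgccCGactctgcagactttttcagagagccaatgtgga
Gm10354: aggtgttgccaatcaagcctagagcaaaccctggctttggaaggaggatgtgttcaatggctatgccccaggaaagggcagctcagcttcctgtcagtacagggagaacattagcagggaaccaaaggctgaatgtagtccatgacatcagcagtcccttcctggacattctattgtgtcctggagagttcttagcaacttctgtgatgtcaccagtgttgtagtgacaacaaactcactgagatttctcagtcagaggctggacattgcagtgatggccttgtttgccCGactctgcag
Tcfl5: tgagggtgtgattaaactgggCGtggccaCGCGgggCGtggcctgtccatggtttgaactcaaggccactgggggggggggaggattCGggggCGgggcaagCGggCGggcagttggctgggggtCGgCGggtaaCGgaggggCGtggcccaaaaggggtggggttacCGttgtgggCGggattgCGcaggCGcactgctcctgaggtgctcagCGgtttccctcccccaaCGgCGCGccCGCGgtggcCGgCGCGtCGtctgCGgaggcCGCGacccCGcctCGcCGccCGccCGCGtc
Mest: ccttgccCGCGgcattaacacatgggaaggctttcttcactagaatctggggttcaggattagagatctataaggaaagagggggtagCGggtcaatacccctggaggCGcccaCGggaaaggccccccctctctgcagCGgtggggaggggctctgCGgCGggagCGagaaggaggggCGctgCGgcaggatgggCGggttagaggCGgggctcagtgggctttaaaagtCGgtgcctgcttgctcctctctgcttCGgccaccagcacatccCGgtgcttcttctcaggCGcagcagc
The Gm1979 window (chr5:26004678-26004977, minus strand) lay in a segment of 18.2 kb, had 2 CG dinucleotides and was 47.3% G or C. Gm10354 (chr5:14978850-14979149, minus strand) lay in a segment of 9.8 kb, had 1 CG and was 49.7% G or C. For Gm10471, a gene further along chromosome 5 in a segment of 12.4 kb, the window matched that of Gm1979 at 253 of 257 aligned bases (98.4%), which is why it is not printed. Gm10354 matched Gm1979 at 210 of 276 bases (76.1%) in the best alignment without gaps. The shared stretch differs in length between these windows, so that share understates their likeness, and no alignment with gaps was made. Reads from copies this alike may map to either of them, and the labels do not say how such reads were treated. Tcfl5, a transcription factor of the testis, had 35 CG dinucleotides and 73% G or C in its window (chr2:180642642-180642941, minus strand), inside a segment of 2.2 kb with state 11 on both sides. Mest, an imprinted gene expressed from the paternal allele, had 17 CG and 62.7% G or C (chr6:30737800-30738099, plus strand), inside a segment of 2.2 kb with state 15 on both sides. The other windows in the longest segments were those of Gm40504, BC040756 and Gm2427, with 4, 2 and 3 CG in segments of 9.8, 9 and 8.2 kb.

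State 14 was a minor state made of short pieces. It covered 25.1 Mb, or 1.02% of the 2462.74 Mb of chromosomes 1 to 19, which made it the seventh of 18 states by bases. Over the 19 autosomes its share was 1.00 ± 0.223% (SD over autosomes, a spread along the genome rather than between mice). The median segment was 0.8 kb on each of the 19 autosomes, and the interquartile range was 0.6 to 1 kb. A length of exactly 800 bp, or 4 bins, was the most frequent, with 8777 segments (30.8%). Segments of 3 to 5 bins made up 62.7% of the total, and segments of a single bin 10.3%.

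The length of state 14 segments was close to that of state 15 segments and below that of the states around them. The 96176 segments of state 15 also had a median of 0.8 kb, with 65.8% at 3 to 5 bins, and the 4846 segments of state 13 had a median of 1 kb. State 11, with 110330 segments and 14.3% of bases, had a median of 2.4 kb, and state 18, with 193288 segments and 51.4% of bases, a median of 3 kb. State 14 had a thin long tail. Its 99th percentile was 3.6 kb, 117 segments reached 5 kb, 25 reached 10 kb, and the longest was 27 kb.

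**Figure D1:**
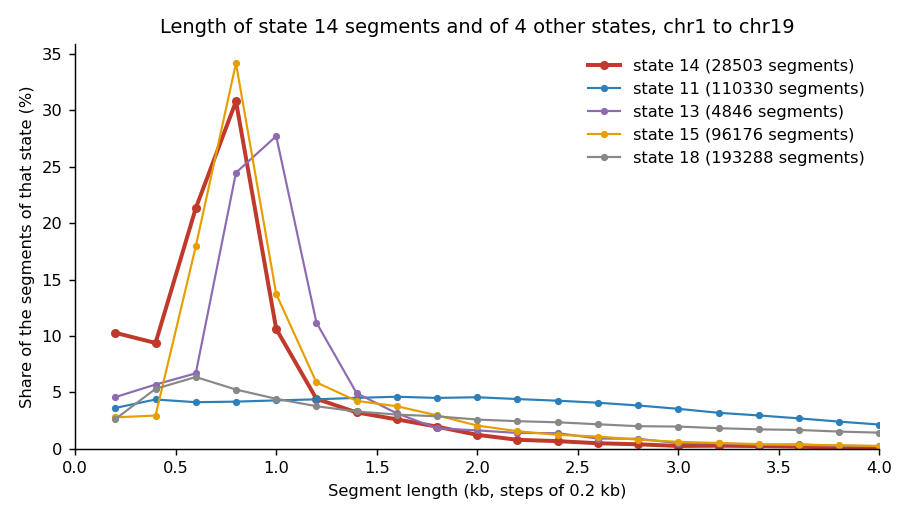
Share of segments (%) against segment length (kb, in bins of 0.2 kb) for state 14 and for states 11, 13, 15 and 18 on chromosomes 1 to 19. State 14 and state 15 both peak at 0.8 kb, where 30.8% of the 28503 state 14 segments lie, and the curves of states 11 and 18 are flat and reach further right.

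Its neighbours were few. Of the 57006 borders of state 14 segments, 42251 (74.1%) were with state 11 and 11456 (20.1%) with state 15. State 11 made up 13.8% of all segments other than state 14, and state 15 made up 12.1%. Over autosomes the share with state 11 was 74.2 ± 1.85% and that with state 15 was 19.9 ± 1.79% (SD, 19 autosomes), and state 11 was the first neighbour on each autosome, with 70.7 to 77.5%. State 18, at 24.3% of other segments, took 3.89% of the borders, state 13 took 1.06%, state 10 took 0.609% and state 9 took 0.188%.

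Several frequent states were almost never beside state 14. State 17, at 14.7% of other segments, shared 0 of the 57006 borders, and state 16, at 12.1%, shared 13. State 8, at 7.74% of other segments, shared 1 border. States 1, 4, 5 and 7 shared 0, states 2 and 3 shared 1 each, and state 6 shared 2. At least 1 side in state 11 was seen in 27413 segments (96.2%).

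**Figure D2:**
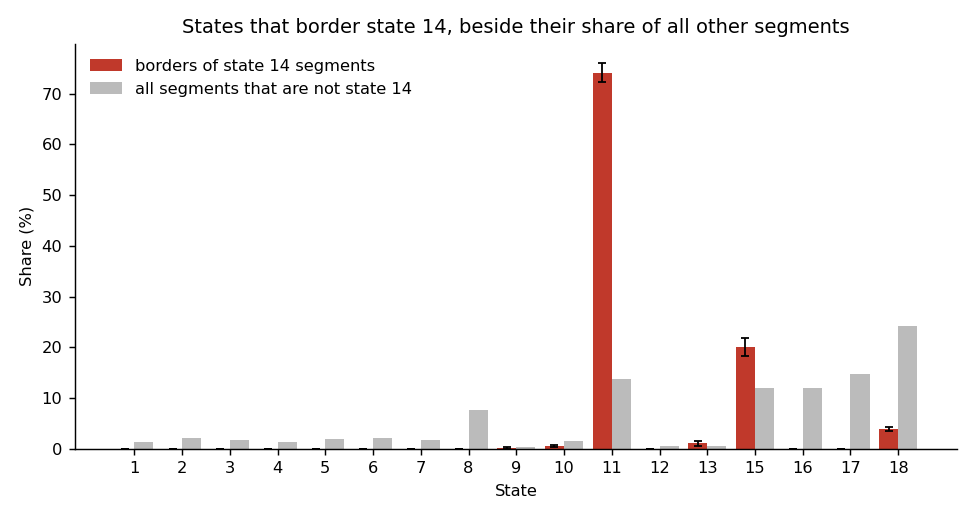
Share (%) of the 57006 borders of state 14 segments taken by each other state, beside the share (%) of that state among all segments that are not state 14. Error bars are the SD over 19 autosomes; state 11 takes 74.1% of the borders against 13.8% of other segments, and states 16 and 17 take next to none.

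Most segments fell into 3 settings by the states on their sides. Segments with state 11 on both sides numbered 14838 (52.1%), with a median of 0.8 kb. Those with state 11 on one side and state 15 on the other numbered 9933 (34.8%) and were shorter, with a median of 0.4 kb. Those with state 11 on one side and state 18 on the other numbered 2011 (7.06%), with a median of 0.8 kb. Where state 11 lay on both sides, its shorter piece had a median of 0.8 kb and its longer piece 2.2 kb, so the member interrupted a stretch of state 11 of a few kb.

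Segments with state 15 on both sides were few and long. There were 558 (1.96% of segments), with a median of 2.2 kb and a longest of 22.2 kb, and they held 6.25% of state 14 bases. Of these, 9.68% reached 5 kb, against 0.121% of the segments between pieces of state 11. They also held an end of a protein-coding gene more often, in 7.53%, against 0.748% of segments between pieces of state 11 and 0.594% of those between states 11 and 15. Of the 117 segments of 5 kb or more, 76 (65.0%) had state 11 on neither side, against 1090 (3.82%) of all members.

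**Figure D3:**
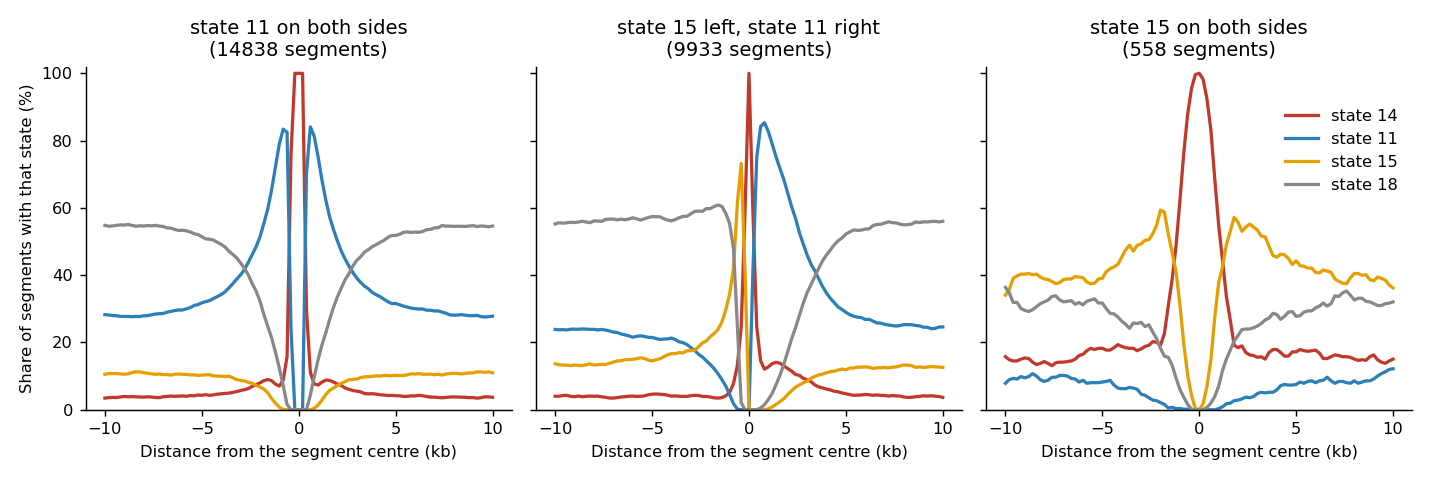
Share (%) of segments with states 14, 11, 15 and 18 at each distance (kb) from the centre of state 14 segments, in 3 panels by the states on their sides; in the middle panel segments are turned so that state 15 is on the left. State 14 gives way to state 11 within 1 kb in the first panel, to state 15 and then state 18 on the left of the second, and more slowly, to state 15, in the third.

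Between states 11 and 18, pairs of states 14 and 15 met in a fixed order, given in the next paragraph. Of the sides of state 14 that met state 15, the next state beyond was state 18 in 88.1%. State 18 took 90.6% of all borders of state 15, so this share was no higher than is usual for state 15. Joined stretches of states 14 and 15 can be read as islands in states 11 and 18. Of 15312 islands with state 11 on both sides, 15265 (99.7%) held state 14. Of 13619 islands with state 11 on one side and state 18 on the other, 11180 (82.1%) held it. Of 79762 islands with state 18 on both sides, 417 (0.523%) held it, and the rest were state 15 alone.

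In islands of 1 state 14 and 1 state 15 segment between states 11 and 18, state 14 lay on the state 11 side in 9099 of 9099 cases. The state 14 part of islands of this make-up had a median of 0.4 kb and the state 15 part 0.6 kb, and the whole island 1 kb. An island of state 14 alone had a median of 0.8 kb, the same as one of state 15 alone. Of the passages between states 11 and 18, 13619 (8.69%) went through an island, against 143086 direct borders.

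State 14 touched 33.2% of state 11 segments, 11.4% of state 15, 10.8% of state 13 and 1.14% of state 18 segments. State 11 segments that touched it had a median of 1.6 kb and those that did not had 2.8 kb. In unbroken stretches of states 9, 10, 11 and 14, the number of state 14 segments per 100 kb was 11.2 in stretches under 2 kb, 9.75 at 2 to under 5 kb, 7.05 at 5 to under 10 kb, 3.22 at 10 to under 20 kb, 1.46 at 20 to under 50 kb and 0.769 at 50 kb or more. The share of stretches that held any was 13.9% in the shortest class and 36.4% in the longest. Long stretches of those states, at 50 kb or more, held 85 of the segments.

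Segments were unevenly spread. Their density was 11.4 ± 2.61 per Mb (SD, 19 autosomes), between 5.80 per Mb on chromosome 19 and 16.2 per Mb on chromosome 14. Chromosomes 9 and 11 were also low, with 7.50 and 7.75 per Mb, although state 11 covered 16.5% and 16.7% of them, above its mean of 14.2%. Chromosome 8 had 14.8 per Mb and the highest share of bases in state 14, 1.35%. Per Mb of state 11, the numbers of state 14 segments were 45.6 on chromosome 9, 46.5 on chromosome 11 and 115.3 on chromosome 14. The gap to the next member had a median of 15.6 kb, with quartiles of 3.8 and 47.8 kb, whereas even spacing would give 85.5 kb. Gaps of at most 5 kb made up 29.0%, and gaps over 100 kb made up 14%.

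Runs of 2 or more segments with gaps of at most 1 kb numbered 2681 and held 5708 segments (20.0%). The largest run had 10 segments over 31.2 kb on chromosome 10 (58205801 to 58237000). It covered the records Duxf3, a double homeobox factor that switches on genes of the early embryo, and LOC100504180, its neighbour. In 6172 pairs of state 14 segments with 1 segment between them, that segment was state 11 in 90.2% and state 15 in 7.74%.

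In windows of 1 Mb, of which 2397 were complete and past the unassembled first 3 Mb, 288 (12.0%) held no state 14 segment, and 274 windows (11.4%) held 50% of all segments. The window with the most had 98 (chromosome 4, 153000001 to 154000000, with 4 protein-coding genes including Ajap1, a junction protein). Windows with 50 or more segments numbered 125 and had a median of 1 protein-coding gene, with 29.8% of bases in state 11 and 0.191% in state 8. Windows with none had a median of 7 protein-coding genes, with 4.98% of bases in state 11 and 8.78% in state 8. In 5 classes of windows of near equal number, ordered by their state 11 share, state 14 averaged 0.399, 0.492, 0.863, 1.25 and 2.21% of bases, low to high. State 15 went with state 11 less, at 4.85, 3.57, 4.72, 5.10 and 5.67% in the same classes.

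Over these windows the Spearman correlation of the state 14 share was 0.59 with state 11, 0.69 with state 15, 0.16 with state 18, -0.45 with state 8, -0.69 with state 17 and -0.70 with state 16. These describe 2397 neighbouring windows of a single map whose shares must sum to the whole. The windows with the most segments included gene-poor stretches around neuronal genes: Slitrk1, Slitrk6 and Slitrk5, each alone in its window on chromosome 14 with 96, 90 and 86 segments, and Cdh7 and Cdh19, adhesion genes on chromosome 1 with 93. Others held no protein-coding gene, with 93 segments on chromosome 14 from 90000001 and 90 on chromosome 2 from 98000001. On chromosome 7, a window from 85000001 with 90 segments lay in an array of Vmn2r pheromone receptor genes. The next, from 86000001 with 85, held mostly Olfr odorant receptor genes, with some Vmn2r genes and Folh1.

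**Figure D4:**
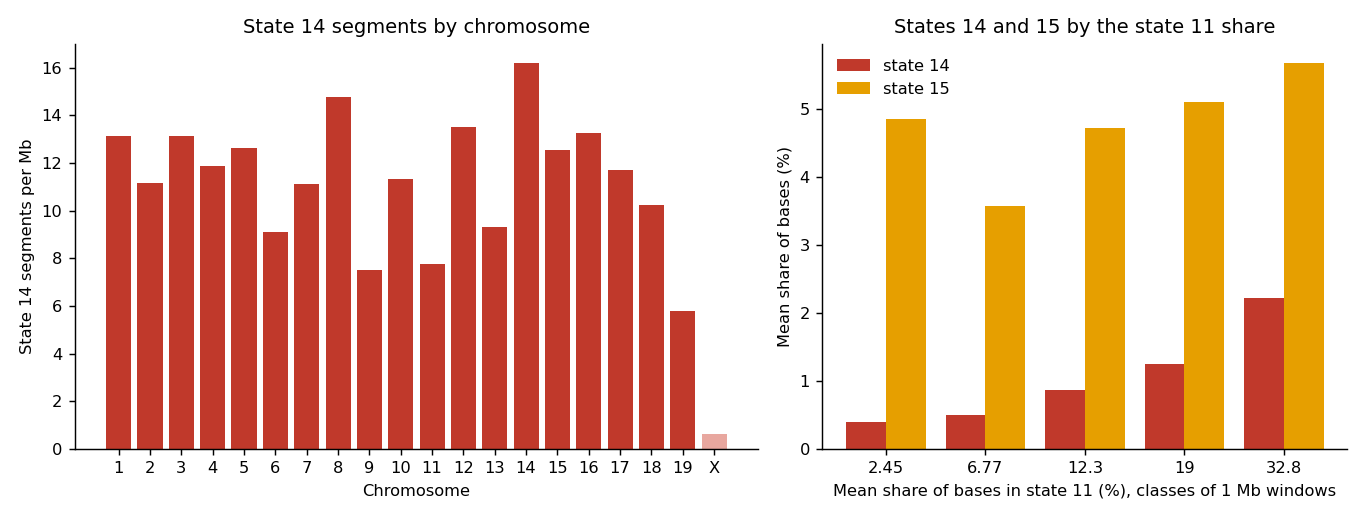
Left, state 14 segments per Mb on chromosomes 1 to 19 and X. Right, mean share of bases (%) in states 14 and 15 in 1 Mb windows in 5 classes of near equal number by their state 11 share. State 14 runs between 5.80 and 16.2 per Mb on the autosomes, with 0.631 on X, and climbs over the classes to 2.21%, while state 15 is never below 3.57%.

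Ranked by bases, 9 of the 10 leading windows were not among the 10 with the most segments. The first was chromosome 4 from 147000001, with 161.8 kb of state 14 in 48 segments, in a window that includes the zinc finger genes Rex2, Zfp978 and Zfp985. The second, on chromosome 4 from 153000001 with 158.8 kb, was also the window with the most segments. Chromosome 1 from 85000001 had 145.8 kb, of which 53.6 kb lay in the record of Gm38510. Sp100, Sp110 and Sp140, nuclear body proteins of the interferon response, are in the same window, but state 14 within their records is not given here. Chromosome 14 from 43000001 had 121.6 kb in a window that holds a set of Gm records and also Ear1 and Ear10, ribonucleases of eosinophils. Chromosome 18 from 37000001 had 97 kb over the protocadherin clusters, chromosome 3 from 106000001 had 95.2 kb around the chitinase-like genes Chil3 and Chil4, and chromosome 5 from 26000001 had 89.4 kb around Speer4a. In the window on chromosome 4 from 147000001, state 15 covered 43.0% of bases and state 11 covered 3.48%, whereas in the protocadherin window state 11 covered 35% and state 15 covered 6.08%.

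Of the 10 longest single segments, 6 lay inside the 10 windows with the most bases in state 14. The segment of 27 kb (chromosome 4, 146476001 to 146503000) held an end of Zfp981, a zinc finger gene, and a second, of 22.2 kb (chromosome 4, 147329601 to 147351800), lay over Zfp978 and Zfp988. On chromosome 8 a segment of 21.4 kb lay over Gm5373 and one of 18.8 kb inside Gm15319. Chromosome 1 had segments of 18.8 kb at Gm7592 and 18.4 kb at Gm38510. The segment of 18.2 kb with the Gm1979 promoter printed above also held an end of Gm5862, and one of 18.2 kb on chromosome 8 was 5.00 kb from the nearest protein-coding gene, 4930467E23Rik. A segment of 16.2 kb on chromosome 7 held an end of Gm29258. The tenth, of 16 kb on chromosome 18 (37742801 to 37758800), held the lower ends of Pcdhga10, Pcdhgb7 and Pcdhga11, adhesion genes of neurons. Shorter ones among the 15 longest that held a gene end were those of Zfp985 (12.8 kb), of Gm10471 and 5031410I06Rik (12.4 kb), of C130026I21Rik (11.4 kb), of Gm15319 (10.6 kb), of Gm10354 and of Speer4a (9.8 kb each), of Gm2427 (8.2 kb) and of Gm8138 (7.8 kb). Of the 10 longest segments, the protocadherin one was the 1 segment that touched neither state 13 nor state 15. Many of these records carry numbered names with a shared prefix, such as Gm or Zfp, and a shared prefix alone does not show alike sequences. The likeness of their sequences was not measured beyond the Gm promoters above, so how far reads could be placed in these segments was not tested.

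State 14 lay mostly outside genes. Gene records came from RefSeq, without strand, so their ends are called lower and upper by coordinate. Of its bases, 18.9% were inside protein-coding gene records, against 40.1% of all autosomal bases, and the share was lower than that of all bases on 19 of 19 autosomes (18.3 ± 5.73%, SD over autosomes). State 15 had 17.6%, state 18 had 28.7%, state 11 had 30.5% and state 13 had 61.2%. State 14 was below states 11, 13 and 18 on 19 of 19 autosomes, and below state 15 on 9 of 19, so these 2 states did not differ in a consistent direction. Segments that overlapped a protein-coding gene numbered 5264 (18.5%). Those outside were a median of 256 kb from the nearest one, against 204 kb for state 15, 167 kb for state 11 and 156 kb for state 18, and 26.8% of all members were over 500 kb away.

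Few members held a gene end: 244 of 28503 (0.856%) held an end of a protein-coding gene, at 10.3 ends per Mb of state 14 against 16.7 per Mb overall. This was not particular to state 14. State 15 had 0.849% of segments and 8.04 ends per Mb, and state 18 had 3.48% and 7.07. State 11 had 3.55% and 13.4, and state 13 had 2.95% and 29.0. Of 20560 protein-coding genes, 238 (1.16%) had an end in state 14 and 1403 (6.82%) had any bin in it. Of the 185 genes with an end in state 14 and a strand in the promoter table, 104 had the 5′ end in state 14, 96 the 3′ end and 15 both. The rest of the 238 genes had no strand there and are not in this split. They include the clustered protocadherins, whose promoters were not analysed here, and other genes as well. Genes with any bin in state 14 were long, with a median of 79.3 kb against 17.6 kb for all protein-coding genes. Of 216 genes of 500 kb or more, 151 (69.9%) had a bin in it.

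Very long genes held many short pieces. Lrp1b, a lipoprotein receptor gene of 2058 kb on chromosome 2, held 98 state 14 segments with 72.6 kb in all. Cdh13, which encodes a cadherin anchored to the membrane by a lipid, held 66 segments with 68.4 kb, and Lrrc4c, a netrin-G ligand of synapses, held 83 with 63.8 kb. Cadm2, a synaptic adhesion gene, held 80 with 63.4 kb, and Cdh18 held 61 with 49.8 kb. State 14 made up 2.09 to 6.57% of the length of these 5 genes and of Ptprd, a receptor phosphatase, and state 11 made up 20.9 to 39.4%. They were chosen, after their values were seen, for the most kb of state 14 outside the protocadherin clusters, Zfp978 and Gm38510. Ranking by kb favours long genes.

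Genes mostly covered by state 14 were of another kind. Of 18295 protein-coding genes of at least 2 kb, 21 had over 50% of their bins in it. Gm10354, whose promoter is printed above, and Gm51571 had 100%, Gm15319 had 90.7%, Duxf3 89.5% and LOC100504180 88.9%. They were followed by Gm8138 with 83.3%, Gm5862 with 82.6%, Speer4a, a glutamate-rich gene of spermatids, with 77.8%, 1700001F09Rik with 68.97% and Zfp985 with 65.2%. Most of these are numbered records without a described product in the table used, and several neighbour each other.

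The members of 30 gene lists were set beside the 1.16% of all protein-coding genes with an end in state 14. A member with an end in it was found in 15 of the 30 lists. In a small list a single member is enough to pass that share, so the counts of such lists are given as counts. Any bin in state 14, as above, was held by 6.82% of all protein-coding genes, and such counts grow with the length of the records. Wilson intervals (95%) are given for the larger lists; they cover counting error only and treat neighbouring genes as separate, which neighbours in 1 segment are not.

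Cadherins and protocadherins, which join cells to each other, had the highest share: 18 of 90 (20.0%, interval 13.04 to 29.4), and 53 had any bin. Of the 18, 17 were clustered protocadherins on chromosome 18, and the other was Cdh10. By cluster the counts were 10 of 21 Pcdhg, 4 of 14 Pcdha and 3 of 22 Pcdhb genes, against 1 of 33 other cadherins and protocadherins. Pcdha1 (36930285 to 37187657) and Pcdha2 (36939205 to 37187661) each had the lower end in state 14 and the upper end, which the records of the cluster nearly share, in state 11. In the 10 Pcdhg records with an end in state 14, that was the lower end, and the shared upper end was in state 17. Counted once within 100 kb, the 18 genes came to 5 groups. The variable first exons of these clusters stand side by side.

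Olfactory receptors, which detect odorants in the nose and are the list with the most genes, had an end in state 14 in 63 of 1103 genes (5.71%, interval 4.49 to 7.24), in 63 separate segments on 8 chromosomes. Counted once within 100 kb these came to 34. Any bin in state 14 was held by 90 of the 1103 (8.16%), in records of a median of 0.951 kb, against 6.82% of all protein-coding genes. A bin in state 14 within 1 kb of an end was held by 150 of the 1103, against 530 (2.58%) of all protein-coding genes. The largest number with an end in state 14 was on chromosome 2, with 32 of 287. Chromosome 9 had 10 of 130 and chromosome 7 had 5 of 239. None of 63 was on chromosome 19, where the limit of a count of 0 is 4.76%. The first by position were Olfr340, with its upper end in state 14, and Olfr1006 and Olfr1013, each with its lower end there, all on chromosome 2 with 0.2 to 0.4 kb of state 14 in the record. Vomeronasal receptors, which detect pheromones, had 16 of 351 (4.56%), among them Vmn2r13, Vmn1r171 and Vmn1r184. Of 122 Vmn2r genes, with a median record of 24.6 kb, 12 had an end in state 14 and 63 had any bin. Of 229 Vmn1r genes, with a median record of 0.924 kb, 4 had an end in it and 7 had any bin. Bitter taste and trace amine receptors had 2 of 50 (Tas2r110 and Tas2r131), and Mas-related receptors of sensory neurons had 0 of 20.

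Zinc finger genes named Zfp, many of them DNA-binding repressors, had 14 of 388 members with an end in state 14 (3.61%), on 7 chromosomes. Zfp990, Zfp981 and Zfp993 were the first by position, all on chromosome 4, with 4.2, 20.8 and 32.6 kb of state 14 in their records. The records of Zfp981 and Zfp993 overlap, so they are not independent. Sperm gene families had 2 of 18 (Speer4a and Speer4b), and prolactin family genes, hormones of the placenta, 2 of 25 (Prl3d1 and Prl8a6, each with 0.8 kb). Oocyte families such as Pramel had 0 of 74, with 4 holding any bin.

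Among genes of liver, skin and secretions the counts were small. Cytochrome P450 genes, with a median record of 23.0 kb, had 2 of 79 (Cyp3a41a and Cyp2a5), with 16 holding any bin (20.3%). Sulfo- and glutathione transferases had 1 of 44 (Gstp3) and 10 with any bin, and UDP glucuronosyltransferases, with a median record of 26.6 kb, 0 of 21 and 7 with any bin (33.3%), among them Ugt2b36 with 3 segments. Serpins had 1 of 62 (Serpina16), keratins and keratin-associated genes 2 of 109 (Krtap19-1 and Krtap19-2, which are neighbours) and defensins 1 of 73 (Defb4). Kallikreins had 0 of 27, major urinary proteins and lipocalins 0 of 35 and the CEA family 0 of 28. Skint genes, which shape T cells of the skin, had 0 of 11 ends and 7 with a bin, in records of a median of 64.0 kb, and Skint5 held 35 segments with 27.2 kb.

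Lists of blood cell genes held few members with state 14, and in the erythroid, lymphoid and neutrophil lists the shares with a bin were near the 6.82% of all protein-coding genes. Of 30 HSC regulators and markers, 0 had an end in it and 0 had any bin, where a count of 0 allows a share of up to 10%. Erythroid genes had 0 of 15 ends and 1 gene with a bin (6.67%), Sptb, a spectrin of the red cell membrane. Lymphoid genes had 0 of 21 ends and 1 gene with a bin (4.76%), Bcl11b, a T cell factor. Of 19 neutrophil and monocyte genes, 1 (5.26%), Fcgr3, a low-affinity receptor for IgG, had its upper end in state 14, with 1.2 kb in 2 segments. Lectin-like receptors of NK and myeloid cells had 0 of 60 ends, and Clec4a3 and Klra2 held bins. Markers of stroma and endothelium, cells that an HSC sort should leave out, had 0 of 12, with 1 segment in Lepr. State 14 therefore gives no check of the labelled cell type.

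Broad gene families were near or under the overall share. Solute carriers had 4 of 362 (1.10%), the first being Slc30a4, Slc22a16 and Slc7a15. Histone genes had 1 of 81, H3f4, with 0.6 kb of state 14 in a record with its other end in state 11. Ribosomal protein genes had 0 of 91 and no bin in state 14, and type I interferons 0 of 19 and no bin.

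Imprinted genes, which are expressed from a single parental allele, had 0 of 18 ends in state 14 and 5 with a bin (27.8%, against 6.82% of all protein-coding genes). Snrpn held 23 segments with 17.6 kb in a record of 468 kb, and Kcnq1 held 8 with 18 kb in a record of 320.2 kb. Gnas held 3 with 6.6 kb, Peg3 held 2 with 2.2 kb, and Mest held 1 with 2.2 kb, the segment around the Mest promoter printed above.

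**Figure D5:**
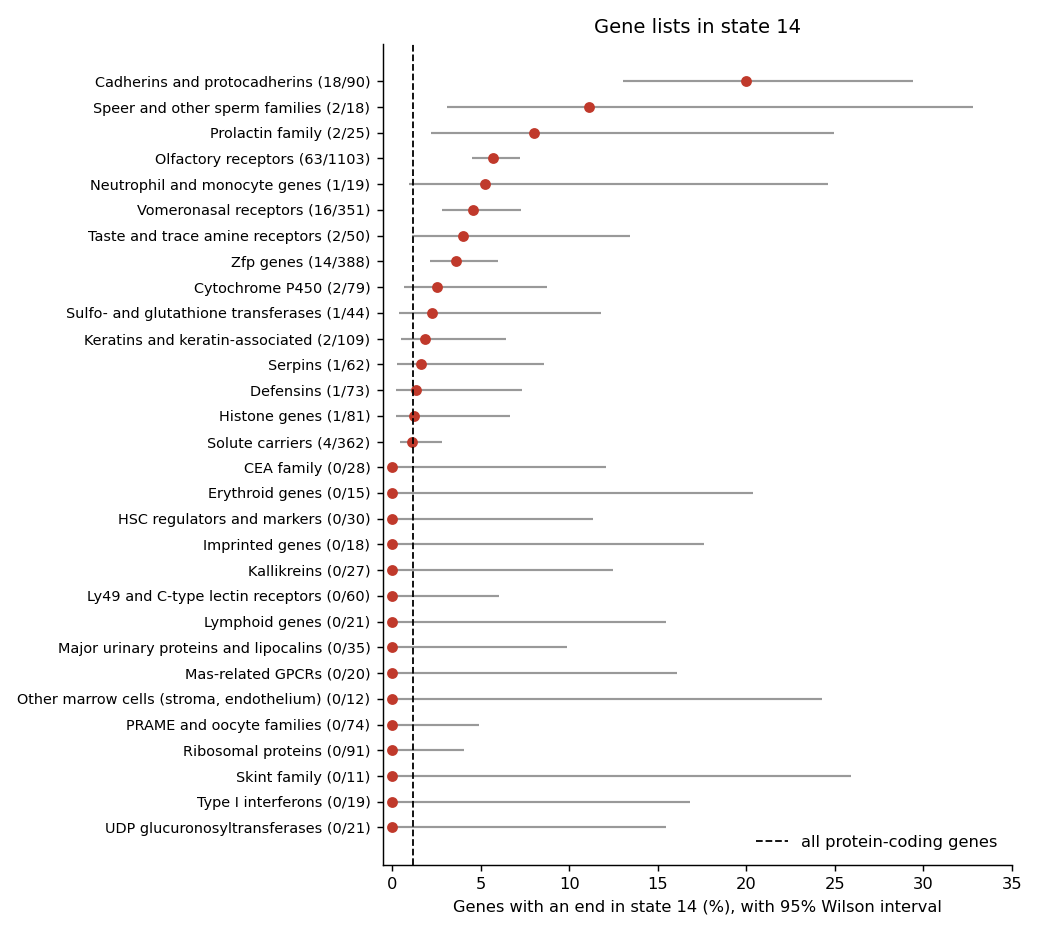
Share (%) of the genes of 30 lists with an end in state 14, as points with 95% Wilson intervals as lines, and the counts in the labels; the dashed line is the 1.16% of all protein-coding genes. Cadherins and protocadherins stand at 20.0% and olfactory receptors at 5.71%, and 15 lists, HSC regulators and ribosomal proteins among them, are at 0.

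Among other kinds of gene, 648 of all 46714 records (1.39%) had an end in state 14. For pseudogenes it was 232 of 8798 (2.64%, interval 2.32 to 2.99), against 130 of 12324 lncRNA genes (1.05%, interval 0.889 to 1.25). By any bin in state 14 the order was reversed, with 4.27% of pseudogenes against 7.38% of lncRNA and 6.82% of protein-coding genes. Counted by ends, pseudogenes named as vomeronasal receptors had 17 of 260 and those named as olfactory receptors 15 of 298. Transfer RNA genes had 5 of 386 and snRNA genes 11 of 924. Of the tRNA genes, 4 lay between 171065984 and 171081946 on chromosome 1, next to the Fcgr3 end: n-TLcag6, n-TLcag7, n-TLcag8 and n-TGgcc14. Of 1136 miRNA records, 3 lay in state 14 (Mir708, Mir101c and Mir6236), and 0 of the 919 hairpins with a sequence at hand did (0%), where such a count allows 0.326%.

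Promoters of chromosome 18, those of the clustered protocadherins included, were not analysed here and are in none of these counts. The other promoters in state 14 were poorer in CG dinucleotides than promoters overall but mixed. The 122 windows averaged 48.7 ± 11.9% G or C (SD over windows), against 54.0 ± 11.3% for all 31365 windows, 49.7% for state 11, 45.2% for state 15 and 45.8% for state 18. The median number of CG dinucleotides was 3 in state 14, against 7 in all windows, 4 in state 11, 2 in state 15 and 3 in state 18. The mean in state 14 was 7.45, against 12.6 in all windows, 6.99 in state 11, 3.79 in state 15 and 3.44 in state 18. Windows with none made up 16.4% in state 14, against 5.25% of all windows, 8.84% in state 11, 12.1% in state 15 and 11.5% in state 18. TATAAA, searched on both strands, was in 22.1% of state 14 windows, against 13.6% of all windows, 19.6% in state 11, 23.1% in state 15 and 21.4% in state 18. None of the 4 printed windows held it.

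A CG-rich group stood inside this set. Of 70 protein-coding genes with a window wholly in state 14, chromosome 18 apart, 18 had a window with 10 or more CG dinucleotides, Tcfl5 and Mest among them. The share of all protein-coding promoters at that cut was not counted, so the 18 are no measure of enrichment. All 31365 windows had a median of 7 CG and a mean of 12.6, so windows this rich in CG are not particular to state 14. Others were Rbmxl2, an RNA-binding protein of male germ cells, with 29 CG, Meioc, a meiosis factor, with 28, and Cdh7 with 19, all chosen after their values were seen. Of the 18 genes in state 14, 9 were between 18 and 24 Mb on chromosome 12, with 22 to 42 CG each, and most were numbered records led by Gm40847. The segments of the 18 were between 1 and 4.2 kb, shorter than those of the printed Gm promoters. Tcfl5 (180642401 to 180644600), Meioc and Rbmxl2 had segments of 2.2, 1.4 and 3 kb.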

How the data were processed

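The series holds 6 libraries, 2 H3.3 ChIP libraries from HIRA knockout HSCs, 2 from wild-type HSCs and 1 input each. Each segment carries a state number and nothing else. The authors deposited 1 map in 2 forms, a dense and an expanded browser track, named for wild-type HSC H3.3, with states ordered by emission per the file headers. Bowtie2, deepTools, MACS2, HOMER and mm10 are named in the submitters' processing notes without versions, and ChromHMM only in the names of the tracks. The tracks hold no read counts, so depth and its precision are unknown. The sources used here do not give the libraries pooled for the map, and HIRA knockout and library-level data were not analysed here.

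Segments on chromosomes 1 to 19 were read with Python 3.11.15, pandas 2.3.3 and numpy 2.4.6 (scipy 1.17.1, matplotlib 3.10.9) and joined to RefSeq genes (GRCm38.p6, which is the mm10 assembly), with positions counted from 1. Genes starting in the unassembled first 3 Mb (105 protein-coding) were left out, leaving 20560 protein-coding genes and 46714 records in all. A gene was counted when the bin of either end was state 14. The counting was tested on a simulated map and gave back what was planted. With 1 map and no replicates no test was run; shares carry the SD over 19 autosomes or a 95% Wilson interval, and a count of 0 the limit of 3 counts.

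The 30 gene lists were symbol patterns for sensory receptors, zinc finger and adhesion genes, tissue enzymes, secreted and reproductive families, blood and marrow cell types, imprinted, histone, ribosomal and solute carrier genes. Members and lists were chosen with earlier results of these data known. Genes were named when they had an end in the 15 longest segments holding one, were among the 10 genes of at least 2 kb with the largest share, were the first 3 members of a list, or were nearest to the 10 longest segments; others were chosen after their values were seen. Alternatives were segments of 1 bin left out, the expanded track, joined segments, chromosome ends or single autosomes left out, and wider or narrower rules for borders, runs, windows and genes.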

Additional observations from a re-analysis of the deposited data

Results flagged for a closer look

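State 14 covered 79.01% of the mitochondrial sequence, which lies outside the chromosomes described above: 12.8 of 16.2 kb, in 3 of its 5 segments, with state 15 on the other 3.4 kb. On the autosomes the share was between 0.520 and 1.35%. Mitochondrial DNA carries no histones, and no input values were at hand to set beside the calls.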

How the results depend on the processing

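Without segments of 1 bin, state 14 covered 0.994% of bases, bordered state 11 at 77.1% and state 15 at 16.8%, had 18.5% of segments in runs and a median gap of 18.4 kb. Without the chromosome ends the share of bases was 1.04%. Taken 1 segment further on, neighbours were state 11 at 2.83% and state 15 at 4.17%, and a gap of 5 kb put 48.7% of segments in runs. In windows of 5 Mb, 0% had no state 14. With all gene records 27.1% of segments overlapped a gene and 2.27% held an end, 17.7% lay wholly inside a protein-coding gene, and 2.15% had an end within 1 kb. Any bin of the record counted 1403 protein-coding genes and 27 lists, and any bin within 1 kb of an end 530 genes. Any overlap gave 225 promoter windows. Leaving out each autosome gave 25938 to 28147 segments, 0.999 to 1.04% of bases, a median of 0.8 kb, 74.0 to 74.3% of borders with state 11, 19.9 to 20.2% with state 15, 17.9 to 19.1% of segments overlapping a gene and 0.778 to 0.913% holding an end. Of 39 other summary settings, 21 kept a count within 1.5 times, a share within its 95% Wilson interval or a length within 1 bin. That interval is narrow for so many segments. No difference was tested, but some lists changed sides of the share of all protein-coding genes with the rule. Serpins had 1.61% against 1.16% by ends, and 4.84% against 6.82% by any bin. Solute carriers went the other way, with 1.10% by ends and 9.12% by any bin. The cause of the moves was not tested beyond what each setting counts.

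No paired analysis was possible because the single map has no replicate columns. Its depth is unknown.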

Other observations

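Chromosome X had 108 state 14 segments, or 0.631 per Mb, against 11.4 ± 2.61 per Mb on the autosomes (SD, 19 autosomes). State 11 covered 1.48% of X and state 15 covered 5.28%, against autosomal means of 14.2 and 4.55%. Of the islands of states 14 and 15 on X, state 14 was in 35 of 35 between pieces of state 11 and in 8 of 6667 (0.120%) between pieces of state 18, against 99.7 and 0.523% on the autosomes. The number per Mb of state 11 was 42.5 on X, below the lowest autosome, chromosome 9, at 45.6. Chromosome Y had 5 segments, with 99.5% of it in state 18.

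The longest stretch without a member was 4.54 Mb on chromosome 2 (117316001 to 121856800), with 91 protein-coding genes. Another, of 4.00 Mb on chromosome 5 (72569601 to 76573200), held 31, among them the receptor genes Kit, Kdr and Pdgfra. Along the assembled part of the chromosomes, the tenth next to the far end held 7.09% of segments, and the tenth next to the centromere held 8.84%.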
